A study of Homo sapiens with 8 samples.

Results

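The genes described here are 10 members of the fibroblast growth factor (FGF) and ERK pathway, taken by symbol from the 17546 genes of the table: the ligands FGF2 and FGF8, the receptor FGFR1, the phosphatase DUSP6, the Sprouty and SPRED inhibitors SPRY1, SPRY2, SPRY4 and SPRED1, and the transcription factors ETV4 and ETV5. All 10 were found, and none was lost to a filter on low values. They were followed in H1 cells, an established line of human embryonic stem cells, in 4 libraries of cells given a negative control shRNA and 4 libraries of cells given an shRNA against NAT10, the enzyme that acetylates cytidine in RNA. Both groups received GV112 lentivirus with GFP, were kept for 48 h, were enriched for GFP+ cells and were expanded in TeSR-E8 medium with 0.5 ug/ml puromycin, after growth in PGM1 medium on Matrigel. No rescue group was analysed here, and an effect of lower NAT10 cannot be told apart from an off-target effect of the shRNA. Nothing in the labels ties the replicates to separate cultures, so p-values reflect only how far these libraries vary, possibly for technical reasons.

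FGF ligands bind receptor tyrosine kinases at the cell surface, and the receptors pass the signal through adaptors, RAS, RAF and MEK to the kinase ERK. ERK signalling then raises the RNA of its own inhibitors, among them DUSP6, which removes the activating phosphates from ERK, and the Sprouty and SPRED proteins, which act between the receptor and RAF. Primed human pluripotent stem cells are cultured with FGF2, which TeSR-E8 contains, and depend on FGF signalling to stay undifferentiated.

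The libraries held 15574631 to 16305014 reads, and control replicate 2 had the fewest. All values called normalized counts are a gene's reads after division by the size factor of its library. NAT10 had 2048 to 2285 normalized counts in controls and 1592 to 1647 in knockdown, 25.3% lower on average, and the groups did not overlap (log2 fold change -0.42, limma adjusted p = 5.88e-14). Of all genes, 32.3% were higher and 32.4% lower in knockdown (limma, Benjamini-Hochberg adjusted p under 0.05), 64.7% in all. Scaling by library totals in place of the authors' size factors shifted the median gene by -0.11 on the log2 scale. This scaling changed the split to 23.2% higher and 41.9% lower (65.1% in all). Each direction below is therefore relative to the authors' scaling, except where library totals or CPM are named. All 10 listed markers of human embryonic stem cells were measured. Their summed level was 104156 to 108470 normalized counts in controls and 127687 to 131557 in knockdown, and DNMT3B alone averaged 36393 and 49902. Of the 10 markers, 7 were higher and 0 lower, or 6 and 2 with library totals. NANOG and DPPA4 were among those that did not pass with the authors' scaling. Of these markers POU5F1 was counted at only 24.0 ± 5.63 and 17.2 ± 7.11 normalized counts (mean ± SD, n = 4 each).

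The ligands rose, the receptor fell slightly and the inhibitors and ETV factors split. FGF2, FGF8, SPRY2 and ETV4 were higher in knockdown, FGFR1, DUSP6, SPRY4 and ETV5 were lower, and SPRY1 and SPRED1 did not pass the test. DUSP6 fell to 32.9% of its control level and FGF8 rose 4.51-fold, the largest changes of the 10. The 8 of 10 genes called stand beside 64.7% of all genes called, and the 8 of 10 whose groups did not overlap stand beside 56.7% of all genes, so neither count sets the 10 genes apart from the table. Changes of at least 2-fold were found for 2 of the 10, 1 up and 1 down, against 9.59% of all genes (3.36% up and 6.23% down). The median absolute log2 fold change was 0.40 for the 10 genes and 0.30 for all genes. These are bulk libraries, in which fewer cells expressing a gene and less RNA per cell cannot be told apart.

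**Figure D1:**
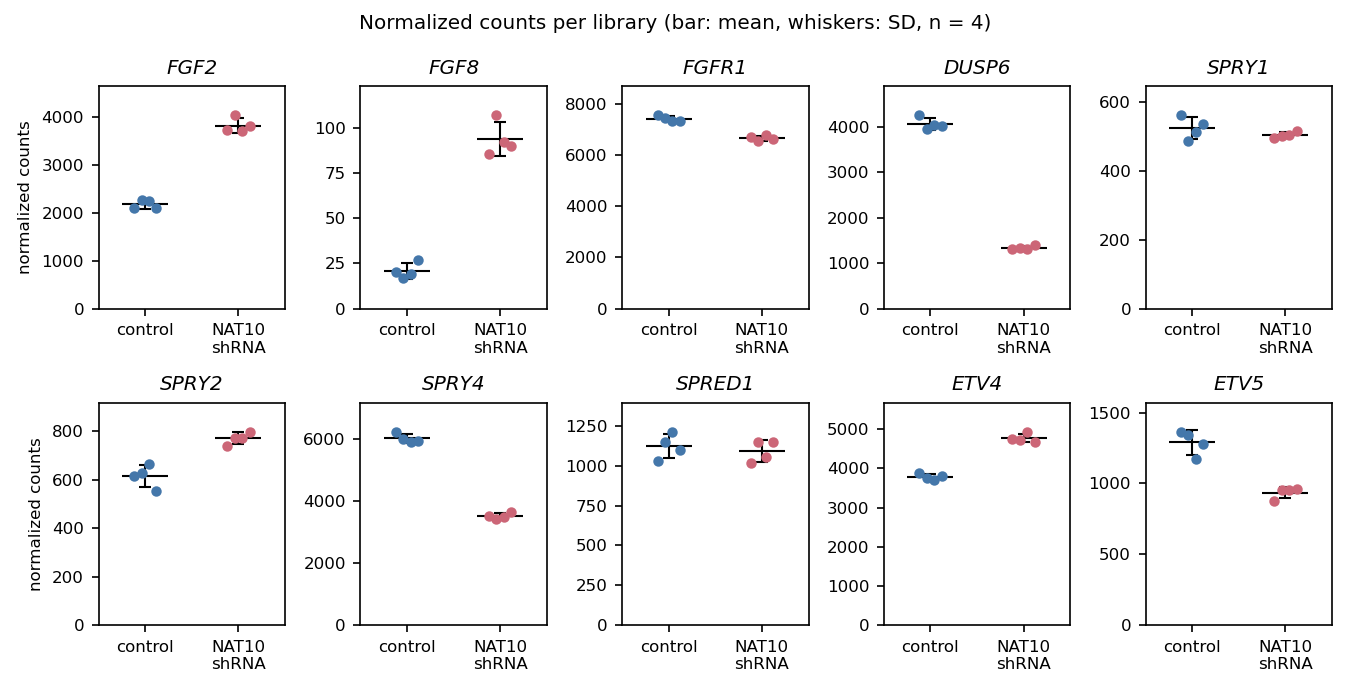
Normalized counts of the 10 genes (vertical axes, from 0) in the 4 control and the 4 NAT10 shRNA libraries; points are libraries, bars are means and whiskers are SD. The groups overlap only for SPRY1 and SPRED1, and DUSP6 lies at 3945 to 4253 in controls and 1306 to 1406 in knockdown.

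FGF2, the ligand supplied to pluripotent cells in culture and also made by them, lies on hg38 chromosome 4 from 122826708 to 122898236 on the plus strand (ENSG00000138685). FGF2 stood at 2085, 2271, 2249 and 2087 normalized counts across control replicates 1 to 4, and at 3712, 4033, 3700 and 3812 across knockdown replicates 1 to 4. Every knockdown library lay above every control library. FGF2 rose 1.76-fold, from 2173 ± 101 to 3814 ± 154 (SD, n = 4 each; log2 fold change 0.81 with a standard error of 0.0367, limma adjusted p = 2.69e-25).

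The 3' end of FGF2 overlaps NUDT6, a gene of the opposite strand, over 804 bp or 11.9% of the merged FGF2 exons. The strand setting of the counting is not given in the sources used here, so reads of the shared stretch cannot be assigned to either strand. NUDT6 moved the other way, from 106 ± 6.15 to 52.7 ± 9.46 normalized counts (log2 fold change -1.02, limma adjusted p = 1.4e-09). SPRY1 lies 499 kb downstream of FGF2 on the same chromosome and strand, and the only other gene of the table between NUDT6 and SPRY1, SPATA5, had 142 and 137 normalized counts (log2 fold change -0.057, limma adjusted p = 0.623).

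FGF8, a ligand of the primitive streak and of early patterning centres in the mouse embryo (hg38 chromosome 10, 101770130 to 101780369, minus strand, ENSG00000107831), was the least abundant of the 10. FGF8 stood at 20.3, 16.8, 19.2 and 27.0 normalized counts across control replicates 1 to 4, and at 85.4, 107, 92.5 and 90.3 across knockdown replicates 1 to 4. The lowest knockdown library was far above the highest control library, although the values rest on few reads. FGF8 averaged 20.8 ± 4.34 in controls and 93.8 ± 9.38 in knockdown (SD, n = 4 each), with a log2 fold change of 2.14 and a standard error of 0.161 (limma adjusted p = 1.2e-16).

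FGF8 also belongs to the list of 9 primitive streak and mesoderm markers, of which 3 were measured. The other measured markers were MIXL1, up by 1.08 on the log2 scale, and TBX6, with a log2 fold change of -0.97. TBXT, EOMES and GSC were not analysed here. The summed level of the 3 measured markers, FGF8 included, was 161 to 175 normalized counts in controls and 208 to 238 in knockdown. The part of cells of another type in the rise of FGF8 was not tested.

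FGFR1, the main FGF receptor of primed pluripotent cells (hg38 chromosome 8, 38400215 to 38468834, minus strand, ENSG00000077782), changed least among the genes called. FGFR1 stood at 7574, 7466, 7352 and 7353 normalized counts across control replicates 1 to 4, and at 6695, 6562, 6797 and 6642 across knockdown replicates 1 to 4. The groups did not overlap, but the distance between them was small. The decrease was 10.3% (log2 fold change -0.16 with a standard error of 0.0299, limma adjusted p = 1.06e-05).

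DUSP6, a cytoplasmic phosphatase specific for ERK (hg38 chromosome 12, 89347232 to 89353271, minus strand, ENSG00000139318), fell the most. DUSP6 stood at 4253, 3945, 4026 and 4015 normalized counts across control replicates 1 to 4, and at 1306, 1320, 1310 and 1406 across knockdown replicates 1 to 4. All knockdown libraries lay far below all control libraries, and replicate 4 was the highest of its group. DUSP6 averaged 4060 ± 134 in controls and 1336 ± 47.5 in knockdown (SD, n = 4 each), 3.04-fold lower, with a log2 fold change of -1.60 and a standard error of 0.0365 (limma adjusted p = 4.65e-38). Of all genes, 1.68% had a lower log2 fold change.

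The antisense gene AC024909.2 covers 40.5% of the merged DUSP6 exons, and its reads cannot be told apart from those of DUSP6 without strand. It was counted at 48.3 ± 2.81 normalized counts in controls and 33.5 ± 2.52 in knockdown, far below DUSP6 (log2 fold change -0.52, limma adjusted p = 0.00439). Among 11174 genes with a mean of at least 100 normalized counts, those whose profiles over the 8 libraries were most like that of DUSP6 included RIMS3 and BMF, which encodes a BH3-only protein. Their root mean square differences from DUSP6 were 0.0633 and 0.0656 on the log2 scale, after each profile was centred on its mean. For FGF8, the largest rise, the nearest profiles were those of BMP4, CAV2 and AHNAK, at 0.110, 0.136 and 0.141. FGF8 itself averaged below 100 normalized counts. Replicates lay close together, so this distance mainly reflects the difference between the groups. The nearest genes are therefore mostly those with a similar log2 fold change: -1.53 for RIMS3, -1.69 for BMF, 2.05 for BMP4, 2.16 for CAV2 and 2.03 for AHNAK. Shared regulation was not tested.

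**Figure D2:**
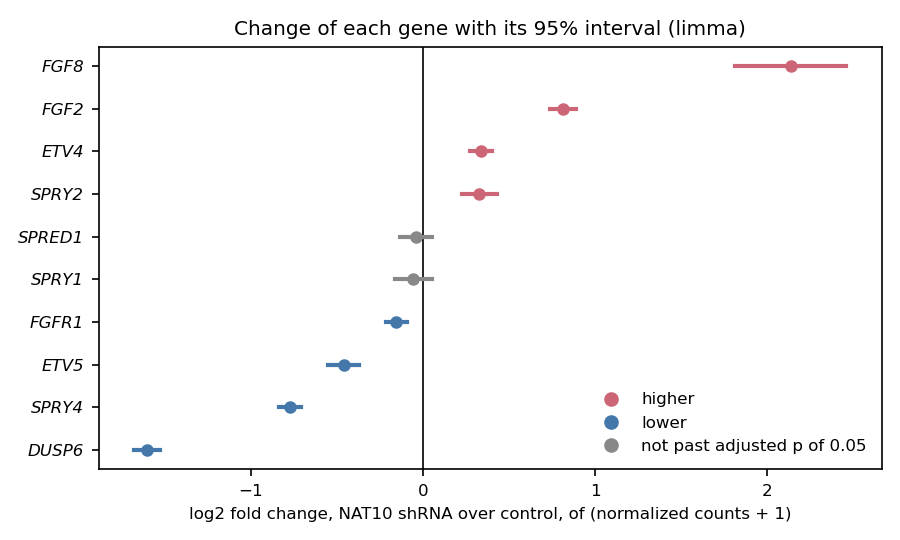
Log2 fold change of each gene (horizontal axis, NAT10 shRNA over control, on normalized counts + 1) with its 95% interval from limma. The intervals of SPRY1 and SPRED1 include 0, those of FGF8, FGF2, ETV4 and SPRY2 lie above 0, and those of FGFR1, ETV5, SPRY4 and DUSP6 lie below 0.

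The Sprouty genes encode inhibitors that are induced by receptor signalling and share a cysteine-rich C-terminal domain, and they moved in different directions. SPRY4 fell, SPRY2 rose and SPRY1 did not pass the test. For SPRY1 and SPRY2 the windows printed are the 250 bases before their outermost annotated start, and for SPRY4 the 250 bases before the RefSeq start that the table gives, so that 3 promoters of 1 family with different outcomes can be read side by side. They are shown 5' to 3' on the gene's strand in GRCh38.p14 coordinates, from RefSeq, with capitals marking GC boxes.
SPRY1, plus strand, chr4:123396545-123396794: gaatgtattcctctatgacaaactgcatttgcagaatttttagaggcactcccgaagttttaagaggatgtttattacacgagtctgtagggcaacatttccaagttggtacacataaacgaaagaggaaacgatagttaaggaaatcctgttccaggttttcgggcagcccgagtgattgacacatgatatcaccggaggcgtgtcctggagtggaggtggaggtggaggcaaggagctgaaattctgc
SPRY2, minus strand, chr13:80341127-80341376: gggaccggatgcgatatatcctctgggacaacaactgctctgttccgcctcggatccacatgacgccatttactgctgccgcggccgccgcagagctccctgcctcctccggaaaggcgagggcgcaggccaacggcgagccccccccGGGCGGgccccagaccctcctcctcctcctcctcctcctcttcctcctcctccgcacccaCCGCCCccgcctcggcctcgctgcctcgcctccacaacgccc
SPRY4, minus strand, chr5:142324248-142324497: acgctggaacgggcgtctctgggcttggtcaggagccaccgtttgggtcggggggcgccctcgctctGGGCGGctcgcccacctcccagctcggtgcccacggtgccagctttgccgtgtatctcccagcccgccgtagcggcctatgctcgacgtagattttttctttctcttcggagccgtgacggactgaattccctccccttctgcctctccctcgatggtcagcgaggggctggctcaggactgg
The motifs searched on both strands were the ETS sequences CCGGAAG and CAGGAAG, the AP-1 sequence TGANTCA and the GC box GGGCGG. The SPRY1 window shown held no match. A window before another RefSeq start of SPRY1 (chr4:123398136-123398385), not shown because most of it lies in exons of coding transcripts, held 1 CCGGAAG, 1 CAGGAAG and 2 GC boxes. The SPRY2 window shown held 2 GC boxes, which begin 102 and 42 bases before the start, and the SPRY4 window held 1, which begins 183 bases before it. Of the windows before the other RefSeq starts of SPRY2, the one at chr13:80339660-80339909 held 1 CAGGAAG and the one at chr13:80340109-80340358 held none of the motifs. GC boxes were found in 42.6% of the 35116 windows of this length in the RefSeq table, CCGGAAG in 8.52%, CAGGAAG in 10.5% and TGANTCA in 6.57%. In GENCODE release 29, 170 bases of the SPRY4 window lie in an exon of a noncoding SPRY4 transcript, and the whole window lies inside the annotated gene. Windows were matched for 6 of the 10 genes.

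SPRY4 (hg38 chromosome 5, 142310427 to 142326455, minus strand, ENSG00000187678) stood at 6257, 6005, 5922 and 5949 normalized counts across control replicates 1 to 4, and at 3538, 3424, 3500 and 3644 across knockdown replicates 1 to 4. The groups were well apart and each was tight. SPRY4 fell by 41.5%, from 6033 ± 153 to 3527 ± 91.6 (SD, n = 4 each), with a log2 fold change of -0.77 and a standard error of 0.0324 (limma adjusted p = 1.12e-26).

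SPRY2 (hg38 chromosome 13, 80335976 to 80340951, minus strand, ENSG00000136158) stood at 614, 628, 664 and 552 normalized counts across control replicates 1 to 4, and at 737, 772, 772 and 798 across knockdown replicates 1 to 4. The highest control library stayed below the lowest knockdown library. SPRY2 rose by 25.3%, from 614 ± 46.8 to 769.8 ± 24.99 (SD, n = 4 each), with a log2 fold change of 0.33 and a standard error of 0.0513 (limma adjusted p = 2.29e-07).

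SPRY1 (hg38 chromosome 4, 123396795 to 123403760, plus strand, ENSG00000164056) stood at 563, 488, 513 and 537 normalized counts across control replicates 1 to 4, and at 497, 502, 504 and 515 across knockdown replicates 1 to 4. The knockdown libraries lay inside the range of the controls. The log2 fold change was -0.056, with a 95% interval from -0.16 to 0.053 (limma adjusted p = 0.375). With library totals as scaling it was -0.16 (limma adjusted p = 0.00716), against a shift of -0.11 in the median gene.

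SPRED1 encodes a relative of the Sproutys that brings the RAS inactivator neurofibromin to the membrane (hg38 chromosome 15, 38252326 to 38357249, plus strand, ENSG00000166068). SPRED1 stood at 1033, 1147, 1215 and 1102 normalized counts across control replicates 1 to 4, and at 1020, 1148, 1053 and 1151 across knockdown replicates 1 to 4. The groups overlapped over most of their range. The log2 fold change was -0.040, with a 95% interval from -0.13 to 0.053 (limma adjusted p = 0.461), and with library totals it was -0.15 (limma adjusted p = 0.00549).

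ETV4 and ETV5 encode closely related ETS transcription factors of the PEA3 group, which FGF signalling induces in vertebrate embryos, and they moved in opposite directions. ETV4 (hg38 chromosome 17, 43527844 to 43579620, minus strand, ENSG00000175832) stood at 3880, 3743, 3704 and 3801 normalized counts across control replicates 1 to 4, and at 4751, 4723, 4940 and 4685 across knockdown replicates 1 to 4. Every knockdown library was higher than every control. ETV4 rose by 26.2%, with a log2 fold change of 0.34 and a standard error of 0.0324 (limma adjusted p = 5.24e-13).

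ETV5 (hg38 chromosome 3, 186046308 to 186110318, minus strand, ENSG00000244405) stood at 1367, 1345, 1174 and 1275 normalized counts across control replicates 1 to 4, and at 874, 956, 955 and 960 across knockdown replicates 1 to 4. Knockdown replicate 1 was the lowest, and the other knockdown libraries lay within a few counts of each other. ETV5 fell by 27.4%, with a log2 fold change of -0.46 and a standard error of 0.0454 (limma adjusted p = 1.11e-12).

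Ratios between members of 1 family within a library hardly depend on the scaling. All 5 ratios formed among the FGF ligands, the Sproutys and the ETV factors differed between the groups without overlap, and these ratios were added after values were seen. Each gave the smallest p that 4 against 4 libraries can give (two-sided exact permutation p = 0.0286, also after Benjamini-Hochberg adjustment over the 5 ratios). For SPRY2 over SPRY4 and ETV4 over ETV5 this outcome was fixed, since 1 gene rose and the other fell without overlap. These p-values restate values already seen and are no separate support. ETV4 over ETV5 was 1.55 ± 0.0807 on the log2 scale in controls and 2.35 ± 0.0706 in knockdown, or 2.93 and 5.10 as linear ratios. SPRY2 over SPRY4 was -3.30 ± 0.118 and -2.19 ± 0.0480, so SPRY4 counts stayed several-fold above SPRY2 counts in both groups. SPRY1 over SPRY4 was -3.52 ± 0.0707 and -2.80 ± 0.0281, and SPRY1 over SPRY2 was -0.22 ± 0.169 and -0.61 ± 0.0281. FGF2 over FGF8 was 6.66 ± 0.328 and 5.33 ± 0.0902.

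**Figure D3:**
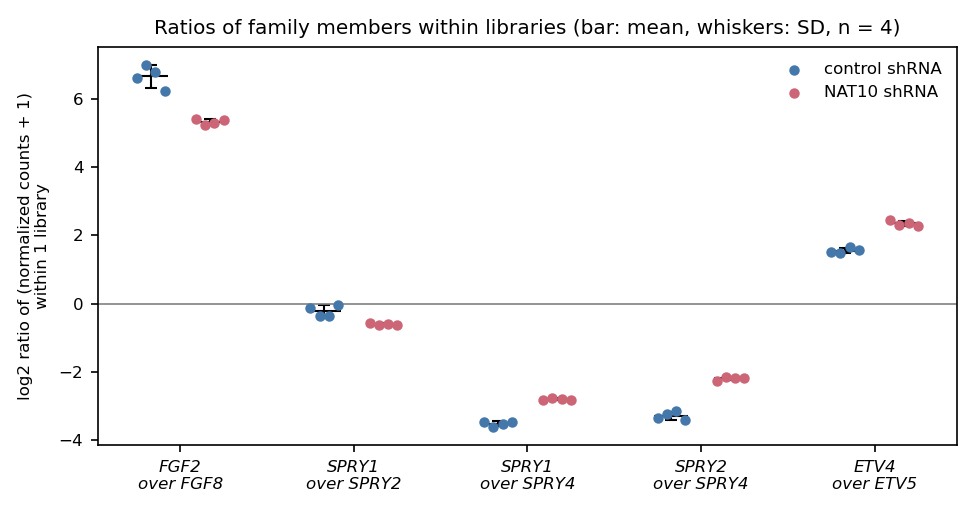
Log2 ratio of normalized counts + 1 between 2 genes of a family within each library (vertical axis); points are libraries, bars are means and whiskers are SD. ETV4 over ETV5 moved from 1.55 to 2.35 and SPRY2 over SPRY4 from -3.30 to -2.19.

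To compare levels between genes, reads were expressed as CPM (a gene's share of its library's reads) per kb of merged exons. CPM rests on library totals, which shifted the median gene by -0.11 on the log2 scale. Changes between the groups in CPM therefore differ from those given above with the authors' size factors. Merged exons join all annotated transcripts of a gene, so the order between genes and the shares below depend on these lengths. FGFR1 had 13.8 kb of merged exons and ETV4 3.61 kb. By CPM without length FGFR1 was the highest of the 10 genes, at 482 in controls and 401 in knockdown, against 245 and 287 for ETV4. In controls ETV4 was highest at 68.0 ± 1.07 CPM per kb, followed by SPRY4 at 59.6 ± 1.27 and DUSP6 at 56.8 ± 1.71, whose ranges over libraries overlapped. FGFR1 at 34.8 ± 0.368, FGF2 at 20.8 ± 1.04, ETV5 at 14.4 ± 0.904 and SPRY2 at 13.1 ± 1.04 came next, with overlapping ranges for ETV5 and SPRY2. SPRED1 at 8.82 ± 0.646 and SPRY1 at 8.59 ± 0.502 overlapped too, and FGF8 was lowest at 0.962 ± 0.200 (SD, n = 4 each).

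In knockdown the order of the levels differed. ETV4 stayed first at 79.6 ± 2.12 CPM per kb. FGF2 at 33.8 ± 1.39 came second and overlapped with SPRY4 at 32.3 ± 0.767, followed by FGFR1 at 28.98 ± 0.474. DUSP6, at rank 3 in controls, was at rank 5 with 17.3 ± 0.587. SPRY2 at 15.2 ± 0.503, ETV5 at 9.70 ± 0.448, SPRED1 at 7.95 ± 0.483, SPRY1 at 7.65 ± 0.111 and FGF8 at 4.02 ± 0.409 followed, with overlap only between SPRED1 and SPRY1. Of the summed level of the 3 Sproutys, SPRY4 made up 73.3% ± 0.810 in controls and 58.5% ± 0.677 in knockdown, while SPRY2 made up 16.1% ± 1.16 and 27.6% ± 0.601. The summed Sprouty level was 81.3 ± 1.84 and 55.2 ± 1.16 CPM per kb. The summed level of ETV4 and ETV5 was 82.4 ± 1.76 and 89.3 ± 2.26 CPM per kb, of which ETV4 made up 82.5% ± 0.802 and 89.1% ± 0.471.

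**Figure D4:**
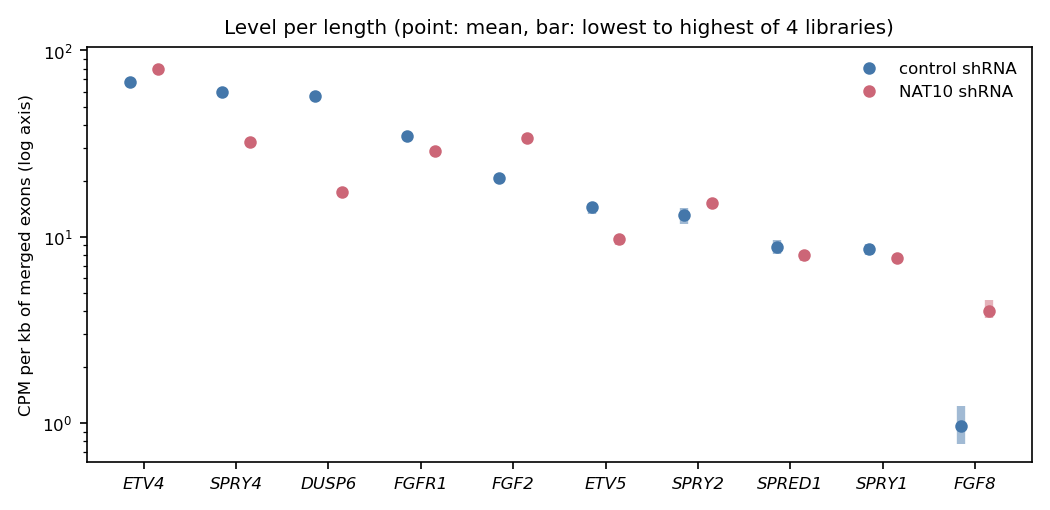
Level of each gene in CPM per kb of merged exons (vertical log axis), in the order of the control means; points are means and bars run from the lowest to the highest of 4 libraries. DUSP6 moved from 56.8 to 17.3 and FGF2 from 20.8 to 33.8, and FGF8 is lowest in both groups.

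The other genes of the pathway were described by 11 lists, whose genes beyond these 10 numbered 116, of which 99 were measured. Of these, 32 rose, 35 fell and 32 did not pass, beside 32.3% and 32.4% of all genes, and their median log2 fold change was -0.044.

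Among 13 measured FGF family genes of 22 listed, FGF2 and FGF8 included, 5 rose and 6 fell, or 4 and 7 with library totals. FGF11 and FGF13, which belong to the family by name, were among those that fell (log2 fold changes -1.53 and -0.21). FGF11 rests on few reads, with 13.8 ± 1.67 normalized counts in controls and 4.35 ± 1.76 in knockdown. FGF1, a ligand that binds all FGF receptors, was at 15.3 ± 2.45 normalized counts in controls and rose to 106 ± 5.14 (log2 fold change 2.73, limma adjusted p = 1.75e-20). FGF19, an endocrine FGF, fell from 249 ± 16.7 to 112 ± 5.26 normalized counts (log2 fold change -1.15, limma adjusted p = 7.02e-17). By counts FGF2 was the most abundant ligand of the list in both groups. Of 6 measured receptors and coreceptors, FGFR1 included, 4 rose and 2 fell, or 3 and 2 with library totals. FGFR3 had 323 ± 17.3 normalized counts in controls and rose to 861 ± 36.7 (1.41 on the log2 scale), and FGFR4 fell from 1704 ± 49.4 to 1414 ± 80.0 (-0.27). Both receptors stayed below FGFR1 in counts.

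The lists of adaptors and kinases between receptor and ERK had medians near 0, with single genes that rose and others that fell. Of 10 receptor adaptors and RAS activators 3 rose and 3 fell (median log2 fold change -0.014), whereas with library totals 0 rose and 6 fell. The adaptor FRS3 had a log2 fold change of -0.51 and the adaptor SHC1 of -0.16, whereas SOS2 rose by 0.24 with the authors' scaling. Of 12 measured RAS, RAF, MEK and ERK genes 3 rose and 3 fell (median -0.0025), or 3 and 5 with library totals. MAP2K1, which encodes the ERK kinase MEK1, fell from 1505 ± 35.6 to 959 ± 28.7 normalized counts (log2 fold change -0.65, limma adjusted p = 1.11e-19). MAP2K2, the other MEK gene of the list, had 2687 ± 66.4 and 2749 ± 82.9 normalized counts and did not pass (log2 fold change 0.033, limma adjusted p = 0.422). KSR1, RRAS2 and NRAS were the genes that rose (log2 fold changes 0.31, 0.25 and 0.22). MAPK3, which encodes an ERK kinase, did not pass (log2 fold change 0.092, limma adjusted p = 0.0712). Of 7 RAS GTPase activating proteins 1 rose and 2 fell, or 0 and 4 with library totals, with log2 fold changes of -0.40 for RASA2 and -0.18 for RASA1.

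DUSP6 was the most abundant of 9 measured dual-specificity phosphatases in controls, by counts. Of the 9, 1 rose and 3 fell, DUSP6 included, or 1 and 5 with library totals. DUSP16 fell from 1582 ± 53.3 to 1262 ± 66.6 normalized counts (log2 fold change -0.33), and DUSP2 rose from 44.6 ± 5.99 to 81.6 ± 8.63 (log2 fold change 0.86). DUSP4, an ERK phosphatase of the nucleus, had 171 and 167 normalized counts and did not pass (log2 fold change -0.032, limma adjusted p = 0.769). DUSP5, with more counts than DUSP4, fell from 455 ± 15.5 to 350 ± 36.0 (log2 fold change -0.39, limma adjusted p = 5.91e-07). Of 13 measured Sprouty, SPRED and other receptor-level inhibitors, among them the 4 described above, 4 rose and 4 fell, or 3 and 8 with library totals. LRIG1, an inhibitor of ERBB receptors, had a log2 fold change of -0.61, and ERRFI1, another ERBB inhibitor, rose by 0.44. SPRED2 and IL17RD also fell (log2 fold changes -0.38 and -0.33), whereas SPRED3 and CBLB rose (0.39 and 0.15).

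Of 10 ETS factors, ETV4 and ETV5 included, 5 rose and 4 fell, or 4 and 5 with library totals. ELK4, a partner of serum response factor, fell from 781 ± 12.1 to 426 ± 30.1 normalized counts (log2 fold change -0.88), and ETS2 rose from 930 ± 37.8 to 1388 ± 45.9 (log2 fold change 0.58). Among 14 measured ERK-induced early genes, 3 rose and 10 fell, or 3 and 11 with library totals, with a median log2 fold change of -0.40 beside 0.0013 for all genes. The genes with the smallest adjusted p were among those that rose: VGF, a neuropeptide precursor, from 464 ± 33.8 to 1596 ± 74.3 normalized counts (log2 fold change 1.78), and CCND1, cyclin D1, from 2156 ± 76.0 to 2892 ± 44.5 (log2 fold change 0.42). The immediate early genes named next were picked after their values were seen, and all of them fell except JUN. FOSB, FOSL1, JUNB, EGR2, IER2 and MYC had log2 fold changes of -0.42, -0.30, -0.37, -1.34, -0.49 and -0.43. EGR2 rests on few reads, with 24.3 ± 7.52 normalized counts in controls and 9.73 ± 4.63 in knockdown. The groups overlapped for FOSB, at 41.7 ± 3.29 and 31.2 ± 6.01 (limma adjusted p = 0.0308). EGR1 fell from 187 ± 7.09 to 95.1 ± 9.44 normalized counts and FOS from 138 ± 7.94 to 83.9 ± 9.02 (log2 fold changes -0.97 and -0.72), whereas JUN rose from 267 ± 8.13 to 372 ± 25.2 (0.47).

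**Figure D5:**
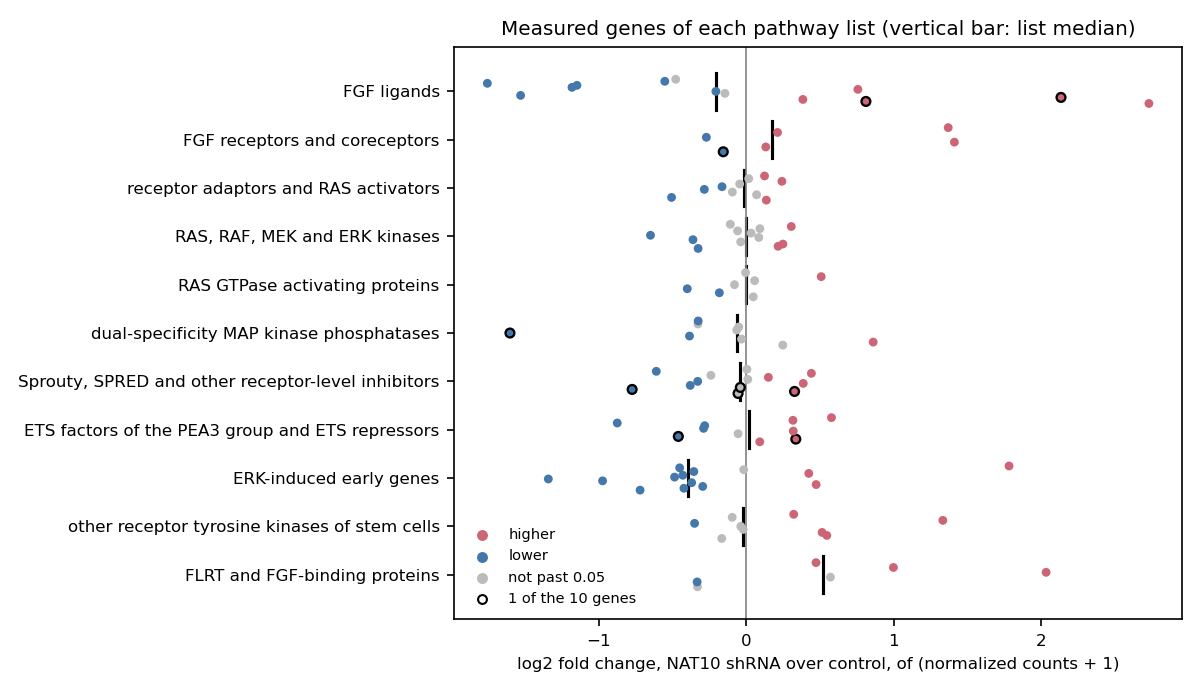
Log2 fold change (horizontal axis, NAT10 shRNA over control) of each measured gene of the 11 pathway lists; vertical bars are list medians, black rings mark the 10 genes, and grey points did not pass an adjusted p of 0.05. The ERK-induced early genes have the lowest median, -0.40, and DUSP6 lies left of the other phosphatases at -1.60.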

How the data were processed

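The tools, in no stated order, were featureCounts 2.0.3, HISAT2 2.2.1, fastp 0.21.1, DESeq2 1.26.0 and SAMtools 1.12, on hg38, per the submitters' processing notes. Neither an annotation nor a strand setting is stated there. Despite column names that call them read counts, the deposited values are a signal, whole reads that the authors scaled by a size factor. Dividing by 1 step per library gave whole numbers for 100% of values (within 1e-06 of a read), and the factors (0.971 to 1.04) equalled recomputed median-of-ratios factors within 7.77e-16. For control replicate 2 the step, 0.991, is so close to 1 that a rounded column could look alike, but the exact factor match held there too. The table held only genes with 10 or more reads in 4 or more libraries. Gene symbols were found for 17532 of 17546 IDs, and exon lengths and coordinates came from GENCODE release 29 (17225 IDs).

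Groups were compared with limma 3.58.1 in R 4.3.3 (robust, with a mean-variance trend), applied to log2(value + 1) with a single group term, and adjustment over 17546 genes at 0.05. Fold changes on this scale understate changes of genes with few reads. The test edgeR 4.0.16 (quasi-likelihood, TMM, 17410 genes) on the recovered reads called 5556 genes higher and 5795 lower. DESeq2 1.42.0, other scalings, pseudocounts of 0.5 and 5, a filter at a mean of 5 CPM, a replicate block, leaving out each library and a threshold of 0.01 were further alternatives. For single values per library the exact permutation test of SciPy 1.17.1 was used, two-sided; the ratios within families were added after their values were seen. The fit was tested on simulated data with known changes. It recovered 36 of 50 genes changed 1.25-fold, 47 of 50 changed 1.5-fold, and all 50 changed 2-fold or 4-fold. It also called 13 unchanged genes.

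Before averaging, replicates were compared: chi-square per gene ranged from 1.78 to 2.49 for libraries of the same group and from 27.5 to 28.5 otherwise, and each library counted as 1 sample. A count of 0 in the shallowest library allows up to 0.193 CPM (3 counts, counting error only). The members and lists were chosen with earlier results of these data known. Beyond the 10 members, the genes named by rule were NAT10, the 2 genes of each pathway list with the smallest adjusted p, and the 3 nearest profiles of the members that changed most in each direction. Some of these are not reported here. Any other gene was named after its values were seen. Figures were drawn with matplotlib 3.10.9.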

Additional observations from a re-analysis of the deposited data

Results flagged for a closer look

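In 84 groups of 4 libraries, for the genes named by rule, the genes overlapping them and the read totals, 3 held a library far from the others of its group, where chance gives about 1 in 20 (4.2 groups). DUSP6 was at 1406 normalized counts in knockdown replicate 4, against 1306 to 1320 in the other knockdown libraries. ETV5 was at 874 normalized counts in knockdown replicate 1, against 955 to 960 in the others. Control replicate 2 had 15.6 M reads (15574631), against 16001770 to 16045882 in the other control libraries. Without the library in question the log2 fold change was -1.63 for DUSP6 and -0.43 for ETV5.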

How the results depend on the processing

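No called member changed direction or lost its call under an alternative that gave it a value, with log2 fold changes of -1.71 to -1.58 for DUSP6, 0.70 to 0.83 for FGF2 and -0.26 to -0.15 for FGFR1. With library totals SPRY1 (-0.16) and SPRED1 (-0.15) also passed as lower, so 10 members were called in place of 8, and among the other receptor tyrosine kinases 9 genes were called in place of 5. Keeping only genes averaging 5 CPM or more removes FGF8 and leaves 7 members called. With this filter 3 FGF family genes were called in place of 11 and 2 FLRT and FGF-binding genes in place of 4. These counts are lower since fewer genes were tested. Leaving out 1 library at a time kept 8 members called (4 higher, 4 lower) and called 10886 to 11007 of all genes. At an adjusted p under 0.01, 9780 of all genes and 8 members were called. The ratios within families kept their direction without each library in turn, for ETV4 over ETV5 with differences of 0.77 to 0.83. Libraries with the same replicate number did not deviate together (correlations of -0.13 to -0.011, none highest with its own number), so the numbers do not pair the samples; with a replicate block 8 members and 11217 of all genes were called. FGF8, with 16.8 to 27.0 normalized counts in controls, is the member whose change depth limits most.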

Other observations

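Receptor tyrosine kinases other than the FGF receptors, which use the same route to ERK, included 9 measured genes of 10 listed, of which 4 rose and 1 fell, or 4 and 5 with library totals. ERBB2 was at 3516 ± 52.6 normalized counts in controls and rose to 5137 ± 181 (log2 fold change 0.55, limma adjusted p = 2.56e-20), and its partner ERBB3 from 1416 ± 15.7 to 2023 ± 25.4 (log2 fold change 0.51). The receptors for insulin and insulin-like growth factor, INSR and IGF1R, did not pass (log2 fold changes -0.037 and -0.020).

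Of 6 measured FLRT and FGF-binding genes, 3 rose and 1 fell, with the same counts under library totals. FGFBP3, which encodes a secreted FGF-binding protein, was at 1247 ± 42.1 normalized counts in controls and rose to 2491 ± 66.7 (log2 fold change 0.998, limma adjusted p = 1.77e-28). ANOS1, which encodes the matrix protein anosmin, a modulator of FGFR1 signalling, rose from 1407 ± 40.4 to 1954 ± 43.6 (log2 fold change 0.47, limma adjusted p = 1.03e-15).

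Markers of other lineages were measured only in part. Of 10 neuroectoderm markers 7 were measured, with a summed level of 7066 to 7506 normalized counts in controls and 15892 to 16587 in knockdown. Most of this sum was NES (5197 ± 145 and 11562 ± 189) and CDH2 (1393 ± 41.0 and 3406 ± 157). PAX6 had only 2.42 ± 0.964 and 25.1 ± 2.05, and DCX fell (log2 fold change -1.50). Of the 7, 5 rose and 1 fell, or 5 and 2 with library totals, and SOX1, ZIC1 and LHX2 were not analysed here. Of 8 definitive endoderm markers 4 were measured, summing to 196 to 229 and 1122 to 1211 normalized counts. Most of the endoderm sum in knockdown was CER1 (125 ± 9.80 in controls and 949 ± 44.7 in knockdown), and HHEX was lower (15.5 and 8.19). Of the 4, 3 rose and 1 fell, or 2 and 1 with library totals, and SOX17 and FOXA2 were not analysed here. Of 13 fibroblast and mesenchymal markers 9 were measured, summing to 22522 to 23268 and 21299 to 23018; 6 rose and 1 fell, or 4 and 2 with library totals, and the median log2 fold change was 0.27. The sum holds opposite changes: THY1, which embryonic stem cells also express, fell from 12941 ± 342 to 7899 ± 260.4, while COL1A1 rose 1.61-fold, POSTN 4.17-fold and TWIST1 3.85-fold, the last 2 from 22.8 ± 2.11 and 9.22 ± 2.13 normalized counts. Of 8 trophoblast and amnion markers 2 were measured, summing to 74.7 to 105 and 95.7 to 123, of which 1 rose. The part of such cells in the changes of the 10 FGF and ERK genes was not tested.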
